A study of Mus musculus with 10 samples.

Results

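Gfi1, Gfi1b, Kdm1a and Rcor1 were followed in mouse bone marrow cells that carried ASXL2 constructs. They are a zinc-finger repressor, its close paralogue, and a pair of subunits of the corepressor complex that both recruit. The 4 genes were picked by symbol out of 47311 genes, and the choice used a measured value, the lower Gfi1 level with every construct. Differences of the 4 genes from the empty vector are therefore given as descriptions, with no test. Lineage-negative, Kit-positive bone marrow cells received one of 3 mutant forms of ASXL2, full-length (WT) ASXL2 or an empty vector. GFP-positive cells were then sorted and expanded in IMDM with serum, IL3, IL6 and SCF, a treatment that all groups shared. PolyA RNA was measured in 2 libraries of each of the 5 groups, 10 libraries in all. The sources used here do not give the strain, age or number of the mice, the promoter that drives the constructs or the sequence changes in the 3 mutants. Whether the 2 libraries of a group are separate cultures is not stated in the labels. The p-values below therefore measure the spread between libraries, which may be technical.

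GFI1 and GFI1B are transcriptional repressors of blood cells. Each carries a short SNAG domain at its start, which docks the histone demethylase LSD1 (encoded by Kdm1a), and zinc fingers at its end, which bind DNA at sites with an AATC core. LSD1 removes methyl groups from histone tails while held by CoREST (encoded by Rcor1), a scaffold that also carries histone deacetylases. GFI1 is known for its part in neutrophil and lymphocyte development and in stem cells, GFI1B for its part in red cells and platelets, and both are known to bind and repress their own and each other's genes.

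The labels and the names of the deposited data disagree for some mutant libraries. Of the 6, 4 carry another mutant number in the deposited name than in the label, and 2 of these also another batch, namely mutant 1 replicate 2 and mutant 3 replicate 1. The mutants were therefore pooled in the comparisons, single mutants are given by label, and "batch" below means the batch in the deposited name, with 5 libraries in each. Batch 2 held 1 library of mutant 2, both of mutant 3, 1 of full-length ASXL2 and 1 of the empty vector. Batch 1 held both libraries of mutant 1, 1 of mutant 2, 1 of full-length ASXL2 and 1 of the empty vector. Batch therefore cannot be told apart from the label for mutants 1 and 3. Estimated counts per library totalled 52422686 to 79320702. Asxl2 itself, the check of the labels, stood at 373.8 to 1045 TPM in the 8 construct libraries and at 30.1 and 28.7 TPM in the empty vector libraries. TPM is a length-scaled share of all transcripts, in which a single very short gene, Mir6236, took 38970 to 109200 TPM.

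GFI1 is known to bind its own gene, so the DNA just before its start sites is shown here for later reference. The mouse Gfi1 gene (ENSMUSG00000029275, mm10 chromosome 5, 107716657 to 107726036, minus strand) has 4 annotated transcripts, with starts at 107726036, at 107725805 and, inside the gene, at 107724343. The 250 bases before the middle start and before the internal start are given from RefSeq (build GRCm38.p6, minus strand), with each AATC on either strand in capitals. The Gfi1b gene (ENSMUSG00000026815, mm10 chromosome 2, 28609450 to 28621982, minus strand) is shown for comparison at its outermost start.
Gfi1, chr5:107725806-107726055: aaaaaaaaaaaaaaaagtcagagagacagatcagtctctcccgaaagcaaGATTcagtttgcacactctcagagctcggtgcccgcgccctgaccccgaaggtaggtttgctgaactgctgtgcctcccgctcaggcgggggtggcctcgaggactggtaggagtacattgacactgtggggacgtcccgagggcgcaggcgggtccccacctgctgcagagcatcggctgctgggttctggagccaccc
Gfi1 internal start, chr5:107724344-107724593: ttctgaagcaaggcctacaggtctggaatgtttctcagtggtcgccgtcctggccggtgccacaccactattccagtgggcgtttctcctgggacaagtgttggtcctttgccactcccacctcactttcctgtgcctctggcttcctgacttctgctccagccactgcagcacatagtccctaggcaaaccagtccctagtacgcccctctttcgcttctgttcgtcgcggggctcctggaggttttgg
Gfi1b, chr2:28621983-28622232: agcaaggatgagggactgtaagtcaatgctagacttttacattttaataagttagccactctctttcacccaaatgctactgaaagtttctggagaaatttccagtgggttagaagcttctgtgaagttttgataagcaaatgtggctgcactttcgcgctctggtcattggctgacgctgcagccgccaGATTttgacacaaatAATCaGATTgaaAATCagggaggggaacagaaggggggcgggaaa

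The first Gfi1 window held 1 AATC, the internal window held 0, and the Gfi1b window held 4. Among 32851 promoter windows of the same length, 69.0% held at least 1 AATC and 7.04% at least 4. The Gfi1b window also held 1 AAATCA, a longer form of the core that overlaps an AATC, which was present in 12.4% of the windows, and 1 TGATAA, a motif of the factors GATA1 and GATA2, present in 7.94%. Both strands were searched. The window before the middle Gfi1 start contains the outermost start of the gene. These matches are letters in a window and were not measured as binding.

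Gfi1 stood at a low fraction of its empty vector level in every construct group. In TPM it was 8.80 and 4.12 with mutant 1, 5.997 and 6.024 with mutant 2, 7.96 and 4.25 with mutant 3, 5.93 and 3.31 with full-length ASXL2, and 18.6 and 18.7 with the empty vector. All 8 construct libraries lay below both empty vector libraries, with no overlap. As background, edgeR called 0.275% of all genes lower in the mutants and 0.0674% lower with full-length ASXL2 than with the empty vector. These are shares of edgeR calls. The share of all genes whose 8 construct libraries all lay below both empty vector libraries was not counted. The pooled mutants averaged 6.19 ± 1.90 TPM (SD, n = 6), full-length ASXL2 4.62 ± 1.85 TPM (SD, n = 2) and the empty vector 18.7 ± 0.102 TPM (SD, n = 2). In CPM (depth-scaled counts with TMM normalisation) the SDs were closer, at 2.49 in the mutants, 2.12 with full-length ASXL2 and 1.90 with the empty vector. The construct mean in TPM was 0.311 times the empty vector mean. These levels rest on 354 to 961 estimated counts in each construct library and on 1285 and 1842 in the empty vector libraries. Counting error is therefore small beside the spread among the pooled mutants and between the full-length libraries. It is not small beside the TPM gap between the 2 empty vector libraries or between the 2 of mutant 2. In bulk RNA, fewer cells with Gfi1 and less Gfi1 RNA per cell cannot be told apart.

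**Figure D1:**
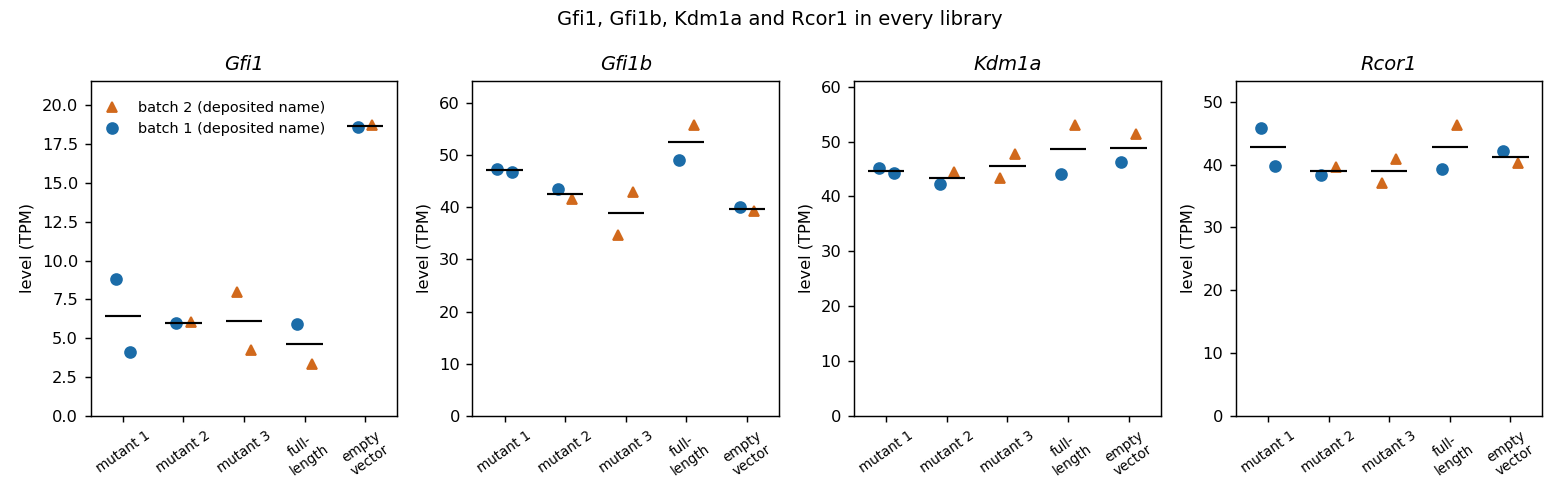
Levels of Gfi1, Gfi1b, Kdm1a and Rcor1 in TPM (linear axes from 0) for each library, by labelled group, with the symbol giving the batch in the deposited name and the line the group mean. Gfi1 stands at 3.31 to 8.80 TPM with any construct and at 18.6 and 18.7 TPM with the empty vector, while for Kdm1a and Rcor1 the pooled mutants, full-length ASXL2 and the empty vector overlap.

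On the log2 scale of CPM, edgeR's fit across all genes gave Gfi1 a log2 fold change of -1.59 (SE 0.26, 95% interval -2.17 to -1.01) for the mutants over the empty vector. For full-length ASXL2 over the empty vector it was -1.91 (SE 0.35, 95% interval -2.71 to -1.12). Without the 2 mutant libraries whose batch is in doubt, the log2 fold change was -1.67 for the mutants and -1.92 for full-length ASXL2. Both comparisons use the same 2 empty vector libraries. Of all 17810 genes tested, 0.309% had a lower value than Gfi1 for the mutants. Gfi1 was chosen for its low level with the constructs, so this rank and the intervals above describe it and test nothing. The groups ran in the order empty vector, mutant 1, mutant 3, mutant 2 and full-length ASXL2 by mean TPM, and below the empty vector each neighbouring pair overlapped apart from mutant 2 and full-length ASXL2, where the lower mutant 2 library (5.997 TPM) lay just above the higher full-length library (5.93 TPM). The order of single mutants depends on the labels in doubt, and in CPM mutant 3 (9.44 ± 4.44) came before mutant 2 (8.40 ± 1.36) and mutant 1 (7.59 ± 2.46; SD, n = 2 each).

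Mutants and full-length ASXL2 were compared with each other as a question the choice of genes did not use. Gfi1 averaged 8.48 ± 2.49 CPM in the mutants (SD, n = 6) and 6.77 ± 2.12 CPM with full-length ASXL2 (SD, n = 2). The ranges overlapped. The log2 fold change of mutants over full-length ASXL2 was 0.32 (SE 0.29, 95% interval -0.32 to 0.96), with an adjusted p of 1 by edgeR's quasi-likelihood test over all genes (Benjamini-Hochberg). In this comparison 0% of all genes passed an adjusted p of 0.05, with 720 at an unadjusted p under 0.05, 80 genes called by DESeq2 and 0 by limma on log2(TPM + 1). The interval leaves room for a difference in either direction. Single libraries moved this value, to 0.048 without full-length replicate 2, 0.668 without full-length replicate 1 and 0.174 without mutant 3 replicate 1.

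The lower Gfi1 level was present in both batches. Gfi1 was chosen for its fall with every construct, and both batches hold constructs, so this is a description and no independent replication. In batch 2 Gfi1 stood at 9.36, 12.6 and 6.30 CPM in the mutant libraries, at 5.28 CPM with full-length ASXL2 and at 26.9 CPM with the empty vector. In batch 1 it stood at 9.32, 5.85 and 7.44 CPM in the mutant libraries, at 8.27 CPM with full-length ASXL2 and at 24.2 CPM with the empty vector. Every construct library lay below the empty vector library of its own batch. The difference in log2 CPM (prior count of 2) from that library averaged -1.76 ± 0.56 in batch 2 (SD, n = 4) and -1.67 ± 0.28 in batch 1 (SD, n = 4). The libraries nearest to and farthest from the empty vector were both in batch 2, mutant 3 replicate 1 at -1.09 and full-length replicate 2 at -2.34.

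**Figure D2:**
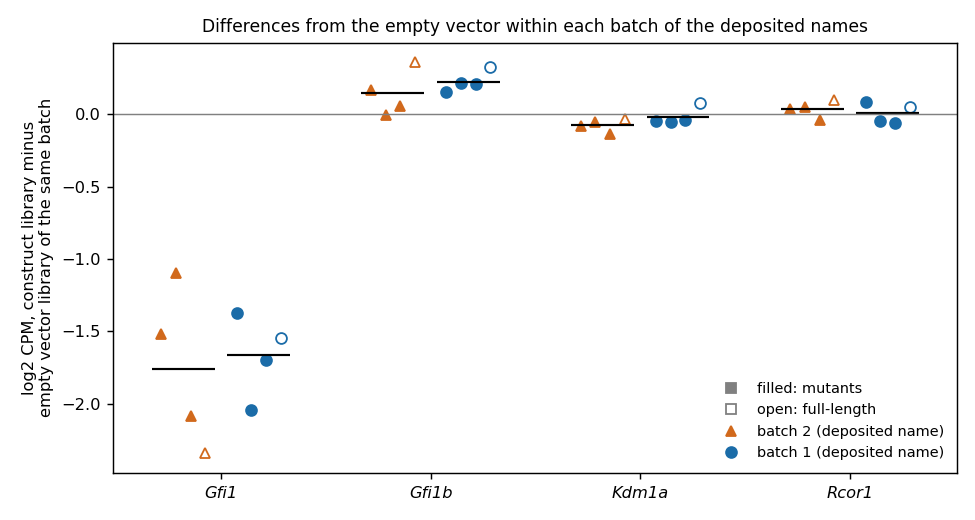
Difference in log2 CPM between each construct library and the empty vector library of the same batch, for the 4 genes; filled symbols are mutants, open symbols full-length ASXL2, and lines the mean of the 4 construct libraries of a batch. All 8 values for Gfi1 lie between -2.34 and -1.09, and the values of the other 3 genes lie between -0.13 and 0.36.

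The difference from the empty vector was tested between batches by an interaction term, with 4 construct libraries and 1 empty vector library in each. For Gfi1, which was chosen for its fall with every construct, the value is a description only. The construct effect in batch 2 minus that in batch 1 was -0.03 on the log2 scale (SE 0.61, 95% interval -1.46 to 1.39). Adjusted p for Gfi1b, Kdm1a and Rcor1 lay between 0.936 and 0.977 in the same edgeR test. Of all genes 0% passed, with 1329 at an unadjusted p under 0.05, 110 called by DESeq2 and 0 by limma. The Gfi1 interval is wide, with 1 empty vector library per batch.

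Reads of Gfi1 were assigned to each annotated start, and all 3 were lower with the constructs. The outermost start (Gfi1-204) stood at 2.63 ± 1.21 TPM in the mutants (SD, n = 6), 1.54 ± 1.10 with full-length ASXL2 and 7.01 ± 0.315 with the empty vector (SD, n = 2 each). Gfi1-204 is a short transcript of 689 bases, so its TPM rests on few estimated counts. It held 20.3 to 116.8 counts in the construct libraries and 134.1 and 210 with the empty vector. The middle start, whose upstream sequence is given above, summed 2 transcripts (Gfi1-202 and Gfi1-203). It stood at 2.51 ± 0.814 TPM in the mutants (SD, n = 6), 2.36 ± 0.856 with full-length ASXL2 and 8.30 ± 0.596 with the empty vector (SD, n = 2 each). The internal start (Gfi1-201), whose window held no AATC, stood at 1.05 ± 0.302 TPM in the mutants (SD, n = 6), 0.727 ± 0.0977 with full-length ASXL2 and 3.36 ± 0.810 with the empty vector (SD, n = 2 each). At each start the groups did not overlap, the highest construct library being at 4.65, 3.62 and 1.43 TPM and the lowest empty vector library at 6.78, 7.88 and 2.79 TPM. The share of all transcripts with such a separation was not counted.

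**Figure D3:**
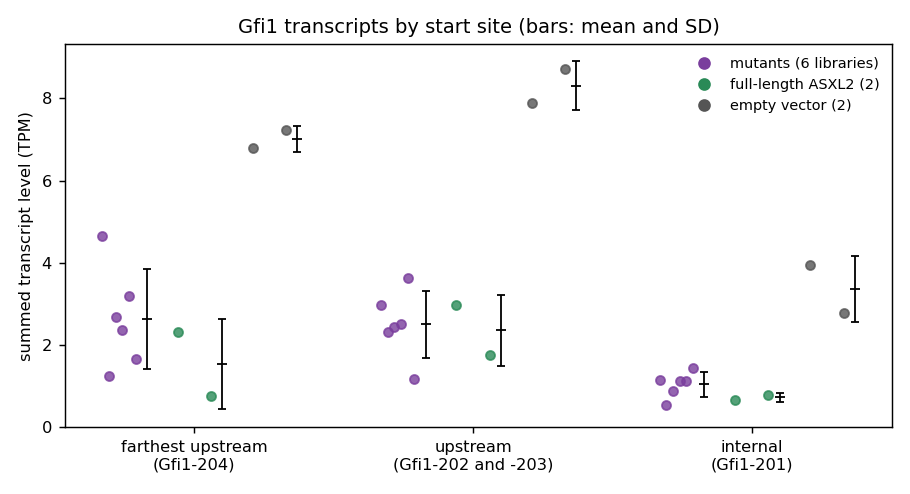
Summed TPM of Gfi1 transcripts by annotated start, as points per library with mean and SD beside them, for mutants (n = 6), full-length ASXL2 (n = 2) and empty vector (n = 2). At all 3 starts the 8 construct libraries lie below both empty vector libraries.

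The shares of the internal and the outermost start overlapped between groups. The internal start made up on average 18.01% of Gfi1 TPM in the mutants, 17.56% with full-length ASXL2 and 18.02% with the empty vector. The outermost start made up 41.0% in the mutants, 31.0% with full-length ASXL2 and 37.5% with the empty vector, with single libraries between 23.0 and 52.8%. This share of TPM rests on the few counts of a short transcript, which makes all 3 shares uncertain. The middle start made up 40.95% in the mutants (27.46 to 56.42%), 51.4% with full-length ASXL2 (49.95 and 52.9%) and 44.5% with the empty vector (42.4 and 46.5%), so the full-length libraries lay above the empty vector libraries and within the range of the mutants. Estimated counts of Gfi1-202 and Gfi1-203, which begin at the same base, traded places between libraries. In mutant 1 replicate 2 Gfi1-203 held 55.1% of Gfi1 TPM and Gfi1-202 1.37%, and in mutant 3 replicate 1 Gfi1-203 held 0.333% and Gfi1-202 45.2%, so only their sum is read here.

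Gfi1b, the paralogue, was the more abundant of the pair in every library, and its construct levels lay near or above those of the empty vector, apart from 1 lower library. Its TPM was 47.3 and 46.8 with mutant 1, 43.6 and 41.7 with mutant 2, 34.7 and 43.0 with mutant 3, 49.1 and 55.9 with full-length ASXL2, and 40.0 and 39.3 with the empty vector. Both full-length libraries lay above all others, while mutant 3 replicate 1 lay below the empty vector libraries. On the CPM scale the mutants spanned 48.1 to 54.3 (median 50.9), full-length ASXL2 had 55.8 and 62.1 and the empty vector 44.5 and 48.4. The log2 fold change over the empty vector was 0.13 (SE 0.073, 95% interval -0.03 to 0.29) for the mutants and 0.34 (SE 0.088, 95% interval 0.15 to 0.54) for full-length ASXL2. For the mutants the value was 0.056 without empty vector replicate 1 and 0.216 without empty vector replicate 2. Within batches the log2 CPM difference from the empty vector averaged 0.14 ± 0.16 in batch 2 and 0.23 ± 0.07 in batch 1 (SD, n = 4 each), with 1 of the 8 construct libraries at or below 0.

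Gfi1b was also compared between the mutants and full-length ASXL2, where a test was run. The mutants averaged 50.9 ± 2.13 CPM (SD, n = 6) and full-length ASXL2 58.9 ± 4.44 CPM (SD, n = 2), without overlap. The log2 fold change of mutants over full-length ASXL2 was -0.21 (SE 0.071, 95% interval -0.37 to -0.05), with an unadjusted p of 0.014 and an adjusted p of 0.933 by edgeR's quasi-likelihood test, so it did not pass. With batch as a block, the adjusted p was 0.151 (edgeR), in a fit that called 0.399% of all genes, and with the batch of the labels as a block it was 0.694. Without full-length replicate 2 the difference was -0.12. The difference lay in the same direction in both batches, with mutant libraries at 54.3, 48.1 and 50.3 CPM against 62.1 CPM with full-length ASXL2 in batch 2. In batch 1 the mutant libraries had 49.5, 51.7 and 51.5 CPM against 55.8 CPM with full-length ASXL2.

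The balance of the pair is a description too, since the Gfi1 level enters it. Per length, Gfi1 made up 15.7 and 8.08% of the joint Gfi1 and Gfi1b TPM with mutant 1, 12.1 and 12.6% with mutant 2 and 18.64 and 8.996% with mutant 3. It made up 10.8 and 5.60% with full-length ASXL2, and 31.8 and 32.3% with the empty vector. The ratio of Gfi1b to Gfi1 TPM ran from 4.36 to 16.9 in the construct libraries and was 2.15 and 2.10 with the empty vector. The joint TPM was 42.7 to 56.1 in the mutants, 55.0 and 59.2 with full-length ASXL2 and 58.6 and 58.0 with the empty vector, so full-length replicate 2 reached the empty vector level and the other 7 construct libraries lay below it. By level over the 10 libraries, Gfi1 stood above 52.1% of the tested genes and Gfi1b above 83.1%.

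Of the transcripts of Gfi1b, the protein-coding Gfi1b-201 held 56.7% of its TPM in the mutants, 57.9% with full-length ASXL2 and 59.6% with the empty vector. The coding Gfi1b-204, which begins at the outermost start, held 37.2% in the mutants, 33.3% with full-length ASXL2 and 37.5% with the empty vector. A short non-coding transcript inside the gene, Gfi1b-203, held most of the rest, with 0 to 25.5 estimated counts per library.

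Kdm1a, the gene for the LSD1 demethylase (ENSMUSG00000036940, mm10 chromosome 4, 136550540 to 136602723, minus strand), overlapped between the pooled mutants, full-length ASXL2 and the empty vector. Its TPM was 45.2 and 44.2 with mutant 1, 42.3 and 44.5 with mutant 2, 43.3 and 47.7 with mutant 3, 44.1 and 53.1 with full-length ASXL2, and 46.2 and 51.4 with the empty vector. Its log2 fold change over the empty vector was -0.07 (SE 0.16, 95% interval -0.43 to 0.29) for the mutants and 0.02 (SE 0.20, 95% interval -0.43 to 0.46) for full-length ASXL2. With batch as a block the intervals narrowed to between -0.16 and 0.02 for the mutants and to between -0.09 and 0.14 for full-length ASXL2. Within batches the log2 CPM difference from the empty vector averaged -0.08 ± 0.04 in batch 2 and -0.02 ± 0.06 in batch 1 (SD, n = 4 each). It was below 0 in 4 construct libraries of batch 2 and in 3 of batch 1.

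Rcor1, the gene for the CoREST scaffold that holds LSD1 on chromatin (ENSMUSG00000037896, mm10 chromosome 12, 111039351 to 111115901, plus strand), also overlapped between these 3 classes. Its TPM was 45.8 and 39.8 with mutant 1, 38.3 and 39.7 with mutant 2, 37.1 and 40.9 with mutant 3, 39.3 and 46.4 with full-length ASXL2, and 42.2 and 40.3 with the empty vector. The log2 fold change over the empty vector was 0.01 (SE 0.080, 95% interval -0.17 to 0.18) for the mutants and 0.08 (SE 0.098, 95% interval -0.14 to 0.29) for full-length ASXL2. Ordered by mean TPM, each neighbouring pair of groups overlapped for both Kdm1a and Rcor1. Both libraries of mutant 2 nevertheless lay below both empty vector libraries for each gene. For Kdm1a so did both libraries of mutant 1, replicate 1 of mutant 3 and replicate 1 of full-length ASXL2. For Rcor1 so did replicate 2 of mutant 1, replicate 1 of mutant 3 and replicate 1 of full-length ASXL2. The share of all genes with such a separation was not counted. Between the mutants and full-length ASXL2 the log2 fold change was -0.09 for Kdm1a (SE 0.16, 95% interval -0.45 to 0.27) and -0.07 for Rcor1 (SE 0.079, 95% interval -0.25 to 0.11), with an adjusted p of 1 for both by edgeR. With batch as a block the Kdm1a interval was -0.183 to -0.0002, and Kdm1a did not pass (adjusted p = 0.443 by edgeR).

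The batches, in contrast to the constructs, were separated by Kdm1a in counts. Kdm1a lay at 103.2 to 113.3 CPM in the 5 libraries of batch 2 and at 81.8 to 89.7 CPM in the 5 of batch 1, with no overlap. The log2 fold change of batch 2 over batch 1, with the construct class in the fit, was 0.37 (SE 0.032, 95% interval 0.30 to 0.44; adjusted p = 1.6e-05 by edgeR's quasi-likelihood test). Without the 2 mutant libraries in doubt it was 0.37 (adjusted p = 0.000189 by edgeR). This comparison called 52.4% of all genes, so a gene that passed it was among the majority. On the log2(TPM + 1) scale the difference was 0.11 (adjusted p = 0.204 by limma), and Kdm1a TPM overlapped, at 43.3 to 53.1 in batch 2 and 42.3 to 46.2 in batch 1. The CPM and TPM scales therefore gave different calls for Kdm1a. In CPM the 2 libraries in doubt lay with the batch of their deposited names, mutant 1 replicate 2 at 81.8 and mutant 3 replicate 1 at 109. The same held for Ctsg, a neutrophil marker given below, at 13.5 and 306.8 CPM. Which of label and name is right was not tested over all genes.

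**Figure D4:**
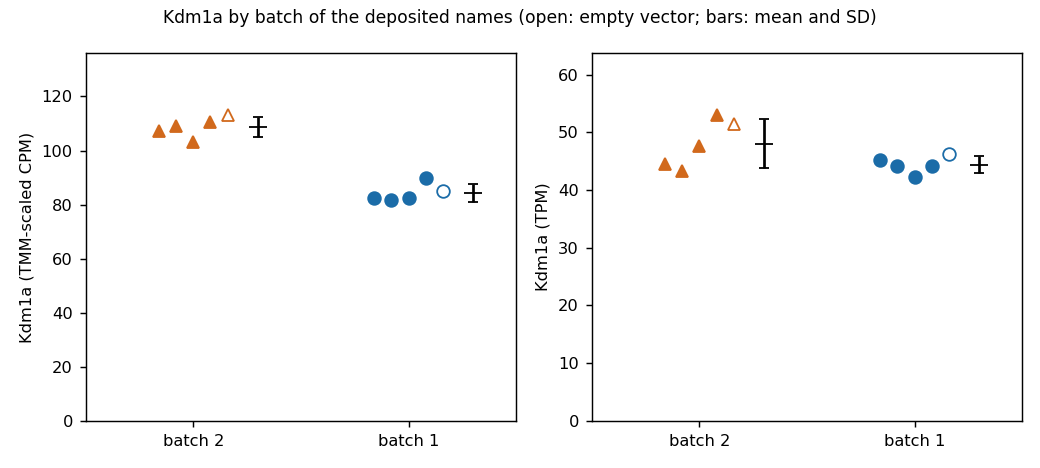
Kdm1a in each library by batch of the deposited names, in TMM-scaled CPM and in TPM, with the empty vector library open and mean and SD (n = 5) beside the points. In CPM batch 2 (103.2 to 113.3) lies wholly above batch 1 (81.8 to 89.7), and in TPM the batches overlap.

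Rcor1 averaged 165.0 ± 5.97 CPM in batch 2 and 151.8 ± 6.35 CPM in batch 1 (SD, n = 5 each), with overlap. Its log2 fold change between batches was 0.12 (SE 0.038; adjusted p = 0.0214 by edgeR), but it was -0.01 on the log2(TPM + 1) scale (adjusted p = 0.944 by limma) and did not pass with a stricter filter (0.06, adjusted p = 0.16). Gfi1 differed between batches by 0.10 (SE 0.24, adjusted p = 0.751 by edgeR) and Gfi1b by 0.06 (SE 0.044, adjusted p = 0.305), and both were negative on the log2(TPM + 1) scale, at -0.15 and -0.09. The median of all genes was -0.04 in counts and -0.11 in log2(TPM + 1).

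The other genes of the pathway were described through 5 lists with 68 genes, of which 58 were tested and 3 stand in more than 1 list. In the fit without a batch term, 0 of the 58 passed for the mutants over the empty vector (7 at an unadjusted p under 0.05, 1 called by DESeq2, 0 by limma), against 1.75% of all genes. For full-length ASXL2 over the empty vector 0 of the 58 passed (2 at an unadjusted p under 0.05, 0 by DESeq2 and by limma), against 0.752% of all genes. Between mutants and full-length ASXL2 0 of the 58 passed in edgeR, DESeq2 and limma, with 2 at an unadjusted p under 0.05 in edgeR. The median log2 fold change of the 58 was 0.08 for the mutants and 0.04 for full-length ASXL2 over the empty vector, beside -0.0018 and -0.014 for all genes. With batch as a block, 8 of the 58 passed for the mutants, against 10.8% of all genes, and 2 for full-length ASXL2, against 5.07% of all genes. With the batch of the labels as the block instead, 0 of the 58 passed in both comparisons, against 1.88% of all genes for the mutants and 0.724% for full-length ASXL2. The lists' calls below all use the block by deposited name and therefore depend on that choice.

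Of the 13 other subunits of the CoREST and LSD1 complex, 3 rose in the mutants with the block, against 6.82% of all genes that rose. Their adjusted p lay just under the threshold. Among them were Phf21a, which encodes the histone reader BHC80 (log2 fold change 0.17, SE 0.048, adjusted p = 0.0471), and Ctbp2, which encodes a corepressor partner (0.22, SE 0.062, adjusted p = 0.0484), both by edgeR. The median over the 13 was 0.13 for the mutants and 0.09 for full-length ASXL2 over the empty vector in the fit without the block. The deacetylase genes stood at 67.3 to 80.2 TPM (Hdac1) and 37.2 to 45.7 TPM (Hdac2) in the mutants, at 68.0 and 86.0 TPM and 36.6 and 51.2 TPM with full-length ASXL2, and at 77.7 and 74.4 TPM and 48.7 and 49.4 TPM with the empty vector. The paralogue Rcor2 was low, at 3.26 to 5.78 TPM in the mutants, 4.85 and 2.84 TPM with full-length ASXL2 and 2.74 and 1.10 TPM with the empty vector, and it did not pass (adjusted p = 0.0908 for the mutants with the block, by edgeR).

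Genes described in the literature as repressed by GFI1 or GFI1B formed a list of 24, of which 21 were tested. With the block, 3 of the 21 rose in the mutants and 2 with full-length ASXL2, where 6.82% and 3.85% of all genes rose, and 0 fell in both. The median log2 fold change over the 21 was 0.04 for the mutants and -0.03 for full-length ASXL2 without the block, so the list as a whole stayed near the median of all genes. Among the members that rose were Nab2 and, in the mutants, Il7r.

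Nab2, which encodes a corepressor of EGR factors, was higher in each construct library than in the empty vector library of its batch. In batch 2 it stood at 35.8, 41.1 and 41.0 CPM in the mutants and at 39.9 CPM with full-length ASXL2, against 24.6 CPM with the empty vector. In batch 1 it stood at 19.5, 22.1 and 23.0 CPM in the mutants and at 20.9 CPM with full-length ASXL2, against 15.0 CPM with the empty vector. The batches differ so much for Nab2 (log2 fold change 0.85 for batch 2 over batch 1, adjusted p = 5.79e-06 by edgeR) that construct libraries of batch 1 lie below the empty vector library of batch 2. With the block the log2 fold change was 0.60 for the mutants (SE 0.082, adjusted p = 0.00129 by edgeR) and 0.59 for full-length ASXL2 (SE 0.097, adjusted p = 0.0058 by edgeR). Without it the adjusted p by edgeR was 0.646 for the mutants and 0.934 for full-length ASXL2.

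Il7r, the chain of the IL7 receptor, stood at 0.136 to 1.48 TPM in the mutants, 0.578 and 0.0769 TPM with full-length ASXL2 and 0.180 and 0.0822 TPM with the empty vector. Its log2 fold change in the mutants was 2.01 with the block (SE 0.49, adjusted p = 0.0287 by edgeR), at levels where few reads decide the value.

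**Figure D5:**
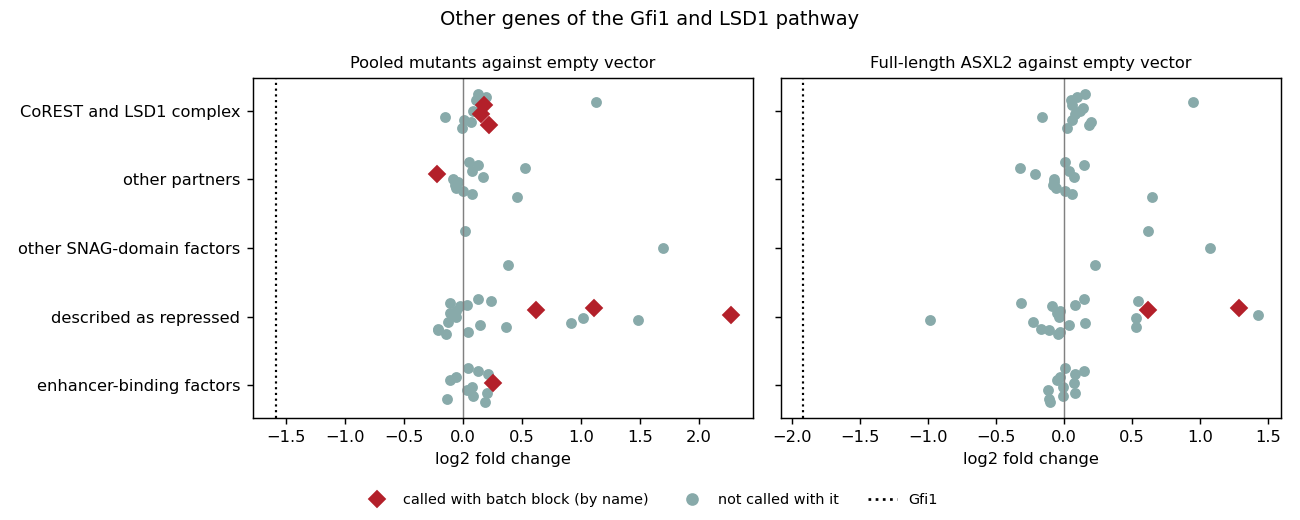
Log2 fold changes over the empty vector in the fit without a block for the tested genes of the 5 pathway lists, mutants on the left and full-length ASXL2 on the right; diamonds passed an adjusted p of 0.05 in the fit with the deposited-name batch as a block, and the dotted line is Gfi1. Gfi1, at -1.59 and -1.91, lies below every listed gene.

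Among 13 other partners of GFI1 and GFI1B, Prmt1, which encodes an arginine methyltransferase, fell in the mutants with the block (log2 fold change -0.24, SE 0.062, adjusted p = 0.0318 by edgeR), where 3.99% of all genes fell. The rise of Lyl1, 1 of 12 factors that bind the Gfi1 and Gfi1b enhancers, was 0.25 in the mutants with the block (SE 0.050, adjusted p = 0.0103 by edgeR). The values by batch were further apart in batch 1, but the interaction of construct and batch did not pass for either gene (adjusted p = 0.435 for Prmt1 and 0.882 for Lyl1, by edgeR). Prmt1 stood at 99.0, 96.1 and 95.4 CPM in the mutants against 102.9 CPM with the empty vector in batch 2, and at 70.7, 65.2 and 68.8 CPM in the mutants against 89.1 CPM with the empty vector in batch 1. Lyl1 stood at 197.5, 208.1 and 192.9 CPM in the mutants against 176.3 CPM with the empty vector in batch 2, and at 252.1, 242.8 and 253.7 CPM in the mutants against 200.2 CPM with the empty vector in batch 1. Of the 10 other SNAG-domain factors, 3 were tested and 9 averaged under 1 TPM in each class. Between batches 33 of the 58 genes passed, 15 higher and 18 lower in batch 2, or 56.9% against 52.4% of all genes. Of all genes 26.6% were higher and 25.9% lower.

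Markers of other cell types were followed because Gfi1 differs between blood cell types. Mast cell markers were high in all groups, with 10 of 10 averaging at least 10 TPM, although the labels give a progenitor phenotype. Their summed level was 56490 to 63060 TPM in the mutants, 56610 and 68790 TPM with full-length ASXL2 and 62610 and 64540 TPM with the empty vector. Stem and progenitor markers summed to 3522 to 4323 TPM in the mutants, 3373 and 3536 TPM with full-length ASXL2 and 4016 and 4028 TPM with the empty vector, with Flt3 and Slamf1 under 1 TPM on average. Of 11 neutrophil markers 9 averaged under 1 TPM in each class, Elane and Mpo among them, and Ctsg made up most of the sum. Ctsg moved with the batch, at 172 to 307 CPM in the construct libraries and 262 CPM with the empty vector in batch 2, and at 3.19 to 17.97 CPM in the construct libraries and 39.8 CPM with the empty vector in batch 1. Lymphoid markers summed to at most 1.93 TPM in any library.

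The summed levels of the basophil, erythroid and megakaryocyte lists overlapped between constructs and empty vector. The 6 basophil markers summed to 578.4 to 686 TPM in the mutants, 568.8 and 692.7 TPM with full-length ASXL2 and 607.1 and 614.7 TPM with the empty vector. The 9 erythroid markers summed to 71.7 to 177.7 TPM in the mutants, 97.1 and 169.9 TPM with full-length ASXL2 and 78.3 and 123.6 TPM with the empty vector, with Slc4a1 near 0. The 6 megakaryocyte markers summed to 969.8 to 1679 TPM in the mutants, 1167 and 1329 TPM with full-length ASXL2 and 1131 and 1485 TPM with the empty vector. Epor, the erythropoietin receptor, stood at 3.44 to 5.80 TPM in the mutants, 5.84 and 7.21 TPM with full-length ASXL2 and 2.63 and 2.27 TPM with the empty vector, without overlap. It rose in both comparisons (log2 fold change 0.90, SE 0.18, adjusted p = 0.0379 for the mutants and 1.45, SE 0.21, adjusted p = 0.0191 for full-length ASXL2, by edgeR). These fits called 1.75% of all genes for the mutants and 0.752% for full-length ASXL2, in either direction. Other erythroid markers averaged lower with the constructs. Tfrc averaged 21.6 TPM in the mutants, 24.2 TPM with full-length ASXL2 and 32.3 TPM with the empty vector, and Hba-a1 19.0, 9.74 and 20.6 TPM in the same order. Mcpt8, a basophil protease, stood at 1.66 to 19.1 TPM in the mutants, 4.44 and 17.2 TPM with full-length ASXL2 and 16.6 and 28.4 TPM with the empty vector, and each construct library lay below the empty vector library of its batch. Mcpt8 did not pass (adjusted p = 0.5995 for the mutants, 0.0634 with the block, by edgeR). The other basophil markers went in both directions. Itga2 averaged lower in both construct classes, at 0.298 TPM in the mutants, 0.285 TPM with full-length ASXL2 and 0.320 TPM with the empty vector. Il4 averaged higher in the mutants and lower with full-length ASXL2. Cd200r3, Prss34 and Cebpa averaged higher in both construct classes. Prss34 averaged 4.909 TPM in the mutants, 8.395 TPM with full-length ASXL2 and 4.641 TPM with the empty vector, and Cebpa 0.414, 0.713 and 0.164 TPM in the same order. Hbb-bt, a beta globin gene, stood at 32.3 to 123.4 TPM in the mutants, 60.7 and 119.9 TPM with full-length ASXL2 and 22.8 and 64.4 TPM with the empty vector, and did not pass (adjusted p = 0.712 for the mutants, 0.0717 with the block, by edgeR). The part of these markers in the Gfi1 values was not tested.

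The summed level of the monocyte and macrophage list was lower with the constructs, mostly through 1 gene, Cx3cr1. The 7 markers summed to 34.98 to 60.09 TPM in the mutants, 44.5 and 53.7 TPM with full-length ASXL2 and 82.0 and 96.8 TPM with the empty vector, without overlap between constructs and empty vector. Of the 7, 2 averaged under 1 TPM and 1 averaged at least 10 TPM. Cx3cr1, a chemokine receptor, was that one, at 22.0 to 34.5 TPM in the mutants, 41.7 and 21.1 TPM with full-length ASXL2 and 78.6 and 59.3 TPM with the empty vector. It did not pass the test (adjusted p = 0.0598 for the mutants and 0.284 for full-length ASXL2, by edgeR), although it passed for the mutants with the batch of the labels as a block (adjusted p = 0.0403 by edgeR). Of the other members above 1 TPM, Ccr2, Cd68 and Adgre1 averaged lower in the mutants than with the empty vector, and Ly6c2 higher. Cd68 stood at 3.43 to 5.79 TPM in the mutants and 5.37 and 6.19 TPM with full-length ASXL2. With the empty vector it stood at 7.68 and 7.37 TPM, but it did not pass (adjusted p = 0.459 for the mutants by edgeR). Adgre1 averaged 2.13 TPM in the mutants, 3.64 TPM with full-length ASXL2 and 3.62 TPM with the empty vector. Ccr2 averaged 2.94 TPM in the mutants, 3.12 TPM with full-length ASXL2 and 6.72 TPM with the empty vector, and passed for the mutants only with the block by deposited name (adjusted p = 0.0358, against 0.321 without a block and 0.308 with the block by label, by edgeR). Ly6c2 averaged 4.15 TPM in the mutants, 5.14 TPM with full-length ASXL2 and 2.55 TPM with the empty vector. It did not pass for the mutants (adjusted p = 0.925 by edgeR) and differed between batches (log2 fold change 1.25, adjusted p = 0.00544 by edgeR). The defining monocyte gene Csf1r was near 0, at no more than 0.0998 TPM in any library. The part of this list in the Gfi1 values was not tested.

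The genes next to Gfi1 on chromosome 5 were set beside it. Of 9 protein-coding genes within 250 kb, 7 were tested, and their log2 fold changes over the empty vector lay between -0.47 and 0.28 for the mutants and between -0.54 and 0.32 for full-length ASXL2. By edgeR 0 of the 7 passed in both comparisons, with 1 at an unadjusted p under 0.05 in each. With the block by deposited name 1 of the 7, Rpl5, fell in both comparisons, where 3.99% of all genes fell in the mutants. For full-length ASXL2 that fit called 5.07% of all genes in either direction, with 3.85% of all genes higher. With the batch of the labels as the block 0 of the 7 passed. Rpl5, which encodes a ribosomal protein, stood at 18.7, 17.9 and 18.5 CPM in the mutants and 17.2 CPM with full-length ASXL2 against 22.15 CPM with the empty vector in batch 2. In batch 1 it stood at 21.5, 21.6 and 21.25 CPM in the mutants and 21.3 CPM with full-length ASXL2 against 27 CPM with the empty vector. Its log2 fold change with the block was -0.30 for the mutants (SE 0.051, adjusted p = 0.00448 by edgeR) and -0.35 for full-length ASXL2 (SE 0.064, adjusted p = 0.00941 by edgeR), and without it the adjusted p was 0.351 for the mutants and 0.556 for full-length ASXL2. Without a block the lowest value in both was that of Evi5, the neighbour that lies upstream of Gfi1, with levels of 1.59 to 3.06 TPM in the mutants, 2.50 and 1.89 TPM with full-length ASXL2 and 3.33 and 3.64 TPM with the empty vector.

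Across the 10 libraries, after centring each batch on its mean, the log2 CPM of Gfi1 was compared with that of 9642 genes averaging at least 5 CPM. The points share libraries and depth, and 2 empty vector libraries stand apart in Gfi1, so these Pearson correlations are descriptions. They were -0.74 for Gfi1b, 0.42 for Kdm1a and -0.05 for Rcor1. The genes with the highest values were Tdrd3 (0.98), Ap1s3, Dicer1, Milr1 and Maco1, and those with the lowest were Snx10 (-0.99), Dbndd2, P2rx1, Ndrg3 and Usp33. Milr1, which encodes an inhibitory receptor of mast cells, averaged 34.9 CPM in the mutants (31.6 to 36.9), 32.6 CPM with full-length ASXL2 (26.0 and 39.2) and 57.6 CPM with the empty vector (54.1 and 61.0). P2rx1, an ATP-gated channel, averaged 101.6 CPM in the mutants (97.9 to 108.4), 104.9 CPM with full-length ASXL2 (100.8 and 108.9) and 85.9 CPM with the empty vector (85.1 and 86.7). Without centring on the batch, 3 of the 10 genes were again among the 10.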

How the data were processed

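The deposited tables give, per library, estimated counts and TPM values for 115088 transcripts; per the file headers, the columns are kallisto's. The submitters' processing notes name kallisto, DESeq2 and mm10, without versions or roles. The sources used here state neither strand settings nor filters. Kallisto shares reads between similar transcripts, so near-identical copies and overlapping antisense genes have uncertain counts.

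Transcripts were summed per gene through GENCODE M21. Of them 114200 (99.2%) matched, 888 were left out, and the matched ones held 99.3 to 99.6% of each library's counts. The summed estimated counts, as deposited, were rounded. Genes reaching 10 counts numbered 15671 to 17293 per library; the rest carry large counting error.

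All 10 libraries entered 1 fit with 3 classes in edgeR 4.0.16 (R 4.3.3; TMM, default filter with 10 counts, robust quasi-likelihood), which kept 17810 genes. The batch comparison added the batch in the deposited names, and the interaction crossed it with construct or empty vector. Calls used a Benjamini-Hochberg adjusted p under 0.05, and CPM is TMM-scaled throughout. Alternatives were DESeq2 1.42.0 and its size factors, no filter, 1 CPM in 4 libraries, limma 3.58.1 on log2(TPM + 1), blocks by label or deposited name, and each library left out. The labels give a batch that follows the replicate number; the batch in the deposited names differs from it in 2 libraries, and blocked results use the deposited names unless stated. As a check, same-numbered libraries' departures from their group mean had correlations of 0.491 (mutant 2 with empty vector), 0.525 (full-length with empty vector) and 0.578 (mutant 2 with full-length); for the remaining 7 group pairs they ran from -0.145 to 0.0169.

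The 4 genes, the pathway lists and the markers were chosen with earlier results of these data known. Named genes are these, up to 4 called members per list and comparison, neighbours of Gfi1 within 250 kb, and the 5 genes with the highest and the 5 with the lowest correlation with Gfi1. Hdac1, Hdac2, Rcor2, Mir6236 and single markers were named after their values were seen. Some listed genes are not reported by name here. Promoter sequences are RefSeq's (GRCm38.p6). The scripts were tested on simulated counts. Python 3.11.15 with pandas 2.3.3 and matplotlib 3.10.9 drew the figures.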

Additional observations from a re-analysis of the deposited data

How the results depend on the processing

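The Gfi1 difference from the empty vector kept its direction in all 18 alternatives of both comparisons. Gfi1 was chosen for this fall, and every construct library lay below both empty vector libraries. The kept direction is therefore no independent support, and only the size of the difference could vary. For the mutants it lay between -1.67 and -1.49, and between -1.75 and -1.49 with single libraries left out; for full-length ASXL2 it lay between -1.96 and -1.85, and between -2.27 and -1.65. With the replicate block by label it was -1.63 for the mutants and -1.96 for full-length ASXL2, and with the replicate block by deposited name -1.59 and -1.90.

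Counts of called genes moved far more. For the mutants over the empty vector (311 called) there were 926 with DESeq2, 1925 with the replicate block by deposited name, 69 with limma on log2(TPM + 1), 162 without the 2 libraries whose batch is in doubt, and 17 to 271 with single libraries left out; empty vector replicate 2 (17), empty vector replicate 1 (28), mutant 3 replicate 2 (183), mutant 2 replicate 1 (186) and mutant 1 replicate 1 (207) mattered most. For full-length ASXL2 over the empty vector (134 called) there were 573, 903, 14 and 37 in the same order, and 0 to 86 with single libraries left out, every library moving the count by over 1.5 times; it was 0 with empty vector replicate 2 dropped, 4 with empty vector replicate 1 dropped and 9 with full-length replicate 2 dropped. For the mutants over full-length ASXL2 (0 called) there were 80 with DESeq2, 71 with the block by deposited name, 1 with the block by label and 0 to 1 with single libraries left out. The interaction (0 called) gave 110 with DESeq2 and 2 without a filter. The causes were not tested.

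Small differences changed sign. Against the empty vector, the mutants' Kdm1a value (-0.072) ran from -0.279 to 0.174 with single libraries left out, positive only without empty vector replicate 2, and their Rcor1 value (0.0063) from -0.056 to 0.077, and was -0.038 on log2(TPM + 1). For full-length ASXL2 over the empty vector, Kdm1a (0.015) ran from -0.189 to 0.265 and was -0.011 on log2(TPM + 1), and Rcor1 (0.075) ran from -0.023 to 0.153, negative only without full-length replicate 2. With single libraries left out, mutants over full-length ASXL2 gave -0.246 to 0.084 for Kdm1a and -0.158 to 0.018 for Rcor1, each positive only without full-length replicate 2. Between batches Gfi1 gave -0.15 on log2(TPM + 1), -0.15 without the 2 libraries in doubt and -0.060 to 0.296 with single libraries left out, Gfi1b gave -0.0016 with 1 CPM in 4 libraries and -0.092 on log2(TPM + 1), and Rcor1 -0.0080 on log2(TPM + 1). Rcor1 lost its batch call without mutant 1 replicate 2 (adjusted p = 0.055 by edgeR). The Gfi1 interaction lay between -0.28 and 0.15 with single libraries left out; without either empty vector library it was not run, since each batch holds 1. The blocks by label or name were not run for the batch and interaction comparisons. Depth limits Il7r and the SNAG-domain factors, which have few reads.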
